A study of Canis lupus familiaris with 42 samples.

Results

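Interferon-stimulated genes are the genes that cells switch on when an interferon binds its receptor, and 30 of them were followed here in canine sarcomas sampled before and after a first heat treatment. The list of 36 symbols holds 35 genes, since DDX58 and RIGI name the same RNA sensor. A gene was measured where a probe set carried its symbol alone, and the probe set with the highest mean over all arrays stood for it. This gave 30 members of 15115 named genes. DDX58 (RIGI), OASL, IFIT1, IFIT3 and BST2 were not analysed here.

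In the interferon pathway a cell senses foreign or misplaced nucleic acid, secretes type I interferon, and the interferon receptor then activates factors such as STAT2, which binds DNA together with IRF9. The genes they switch on include sensors that raise the sensitivity of the cell, enzymes that degrade or edit RNA, proteins that block virus replication, and the ubiquitin-like protein ISG15 with its enzymes. In tumours the same genes can be active in cancer cells and in immune and stromal cells, and interferon gamma from lymphocytes switches on an overlapping set.

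The tumours were spontaneous sarcomas of dogs, each sampled as untreated tissue (before) and again after the first hyperthermia, which was an adjuvant to radiotherapy (after). The series text speaks of 22 tumours, and 21 tumours with both arrays, 42 arrays in all, were analysed here under the numbers 1 to 21. The labels give no age, breed, sex or tumour site, no interval between the samples, and no statement on whether radiation came before the second sample or whether each tumour came from another dog. No untreated tumour was sampled a second time, so a change is the difference between 2 samples of a tumour. Values are log2 levels after RMA, and a change is after minus before.

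Array medians lay between 5.200 and 5.31. The poly-A spike-in controls placed both arrays of 9 tumours in a spiked batch and both arrays of the other 12 in an unspiked batch, which no label names. The 9 mesenchymal markers averaged 11.4 to 12.5 per tumour before treatment, and 5 keratinocyte and epithelial markers 3.35 to 5.33. Levels of different probe sets are not on 1 scale, so these ranges describe each list alone. The 23 members with a mean above the median probe set mean of 5.28 leave 7 dimmer ones, which were EIF2AK2, OAS3, IFIT2, RSAD2, CMPK2, HERC5 and IRF7. The number of arrays limits the precision.

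Across the 21 tumours the interferon-stimulated genes did not move in 1 direction. The mean change over the 30 members was 0.11 ± 0.52 (SD, n = 21), and it was above 0 in 12 tumours and below 0 in 9. HERC6, a ligase of the HERC family, was the 1 member that rose at a Benjamini-Hochberg adjusted p under 0.05. At that threshold 0 of 30 members fell. The change differed widely between tumours: the median SD of the change was 0.58 over the members and 0.28 over all named genes. In tumour 1 nearly all members were lower after treatment, and in tumour 3 nearly all were higher.

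The change was tested with limma in every probe set, with the tumour as a block and Benjamini-Hochberg adjustment over 42924 probe sets. Over all of them 5.96% were called, 2.97% higher and 2.99% lower after treatment. The member counts of 1 higher and 0 lower stand against these shares. At an unadjusted p under 0.05 there were 4 members, HERC6, MX2, OAS2 and EIF2AK2, all with a higher mean after, against 19.4% of all probe sets. The mean change was above 0 for 21 members and below 0 for 9, and its median was 0.09, against 0.007 over all named genes. Bulk tissue was measured, so fewer cells of a type and less RNA per cell cannot be told apart in any change given here.

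**Figure D1:**
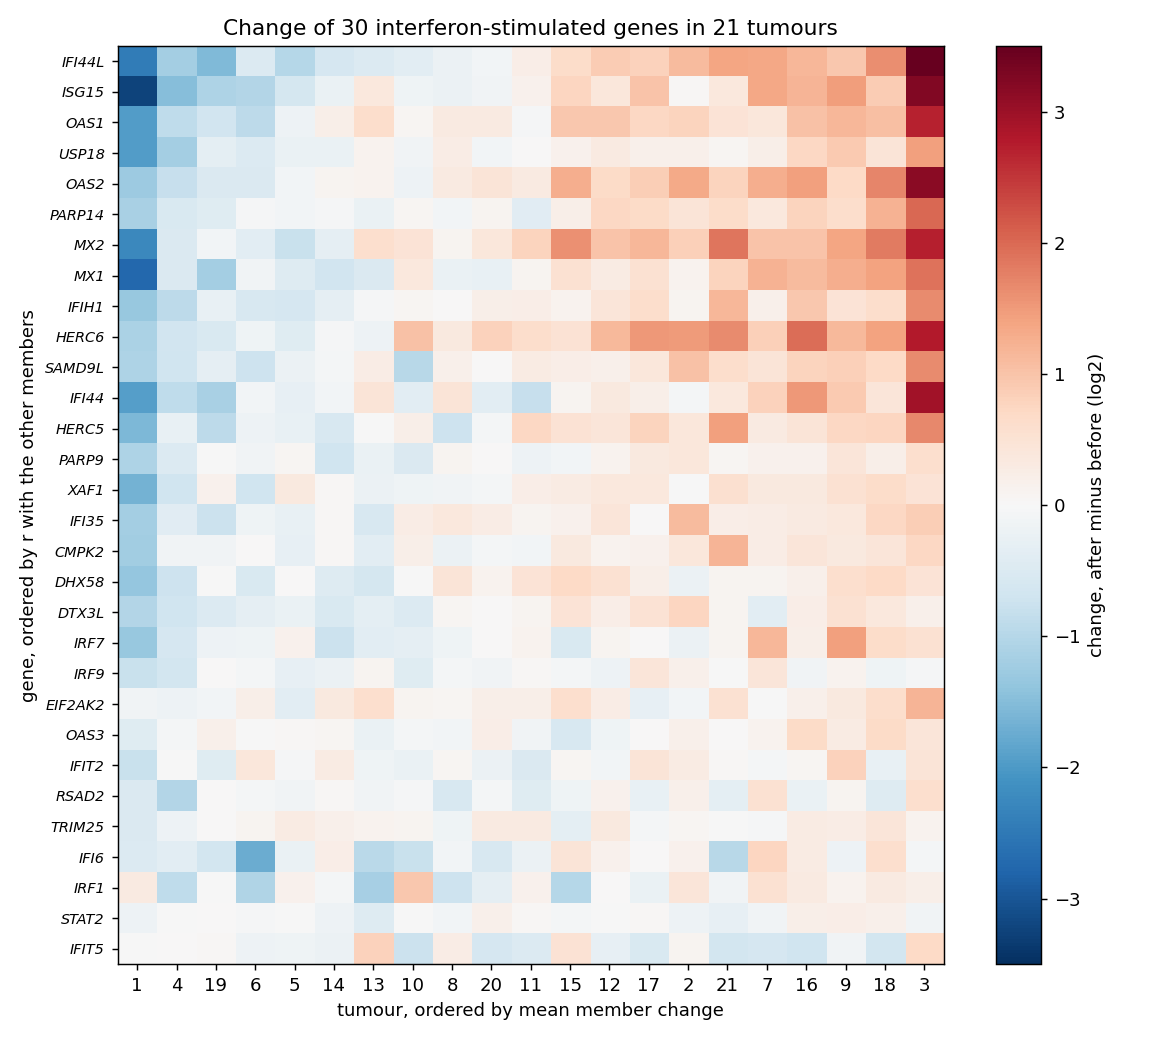
Change of each of the 30 members (rows, ordered by correlation with the other members) in each of the 21 tumours (columns, ordered by the mean member change), as after minus before on the log2 scale, with red for higher and blue for lower. Tumour 1 at the left is blue in 29 of 30 rows and tumour 3 at the right is red in 27 of 30, while the lowest rows, among them STAT2, IRF1 and IFIT5, do not follow the others.

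The sensors and OAS enzymes detect double-stranded RNA inside the cell. OAS1 and OAS2 make the short oligoadenylates that activate RNase L, which cuts RNA. OAS1 ran from 5.73 through a median of 7.82 to 9.84 before treatment and from 6.47 through 8.19 to 9.80 after. The ranges overlapped almost wholly, and tumour 11 was the highest at both times. The mean change was 0.34 ± 0.19 (SE of the limma fit, n = 21, adjusted p = 0.350), with 15 tumours higher.

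OAS2 ran from 6.07 through 8.31 to 9.997 before and from 6.62 through 8.65 to 10.32 after. Again tumour 2 was lowest before, tumour 10 lowest after, and tumour 11 highest at both times. The mean change of OAS2 was 0.53 ± 0.20 (SE, adjusted p = 0.119), with 15 of 21 tumours higher. OAS3, the third enzyme of the family, changed less between tumours, with an SD of 0.31 against 0.95 for OAS1 and 0.99 for OAS2.

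IFIH1 (MDA5), which senses long double-stranded RNA, had a mean change of 0.13 with an SD of 0.68. DHX58 (LGP2), a regulator of the other sensors, had 0.04 with an SD of 0.53. EIF2AK2 (PKR), the kinase that stops translation when it binds double-stranded RNA, had 0.20 ± 0.08 (SE, adjusted p = 0.122). No sensor or OAS enzyme of the 6 measured passed the test. The mean over these 6 genes was 0.22 ± 0.56 (SD over tumours), with 14 of 21 tumours higher.

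The antiviral effectors act on the virus itself. MX1 and MX2 are dynamin-like GTPases that trap virus components. MX1 ran from 6.33 through a median of 8.39 to 10.90 before and from 6.89 through 8.26 to 10.47 after, and its mean change was 0.14 ± 0.21 (SE, adjusted p = 0.786). The 2 ranges overlapped, and 12 tumours were higher and 9 lower.

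MX2 ran from 4.38 through 5.48 to 7.97 before and from 4.98 through 6.34 to 8.60 after. Most tumours shifted upward while tumour 1, the highest before treatment, was below the median after it. The mean change of MX2 was 0.59 ± 0.22 (SE, adjusted p = 0.115), with 15 tumours higher. Without tumour 1 it was 0.73 with an adjusted p of 0.0227, and in the 9 spiked tumours alone it was 0.86 with an adjusted p of 0.0381. In the 12 unspiked tumours alone it was 0.39 (adjusted p = 0.702), in a fit that called 0 of all 42924 probe sets. The limma interaction of the change with batch had an adjusted p of 0.868 for MX2.

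IFIT5, an RNA-binding protein of the IFIT family, ran from 5.67 through 7.19 to 8.21 before and from 6.06 through 6.89 to 8.20 after. Tumour 1 was the highest at both times, which no other member shared. The mean change was -0.16 ± 0.09 (SE, adjusted p = 0.359), with 14 tumours lower. RSAD2 (viperin), which makes a chain-terminating nucleotide, ran from 3.67 through 4.08 to 5.30 before and from 3.63 through 3.98 to 4.81 after. RSAD2 had a mean change of -0.13 ± 0.08 (SE, adjusted p = 0.366), with 14 tumours lower, at levels below the median probe set.

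The other effectors had mean changes between 0.008 for IFIT2 and 0.17 for SAMD9L, a restriction factor of poxviruses. CMPK2, a mitochondrial nucleotide kinase, had a mean change of 0.10 with an SD of 0.47. Its unused probe sets, all dimmer, changed by 0.32, 0.09 and 0.29, with SDs of 0.48, 0.46 and 0.80. They followed the used one at r = 0.58, 0.77 and 0.79, so the values of CMPK2 are those of 1 probe set. None of the 7 effectors measured passed the test. Their mean was 0.10 ± 0.50 (SD over tumours), with 11 of 21 tumours higher.

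ISG15 is a ubiquitin-like protein that is secreted and is also attached to other proteins. It ran from 5.66 through a median of 7.78 to 10.34 before and from 5.52 through 7.55 to 10.50 after. Tumour 10 was lowest and tumour 11 highest at both times, so the ends of the range were held by the same tumours. The mean change of ISG15 was 0.15 ± 0.26 (SE, adjusted p = 0.832) with an SD of 1.30, and 12 tumours were higher and 9 lower. Without tumour 3 the mean change was -0.01.

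HERC6 belongs to the HERC family of ligases and is related to HERC5, the enzyme that joins ISG15 to proteins. It ran from 4.88 through 6.81 to 8.74 before and from 5.68 through 7.48 to 9.35 after. Low tumours before treatment, such as 2 and 3, were among those that were higher after, and the ranges still overlapped. The mean change was 0.67 ± 0.20 (SE, adjusted p = 0.0411, SD 0.98), a 1.59-fold rise on the log2 mean, with 14 of 21 tumours higher.

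The call on HERC6 lay near the threshold. When each tumour was left out in turn, it held in 9 of 21 fits, with changes between 0.57 and 0.76 and adjusted p-values from 0.0203 to 0.0766. It was lost without tumour 2 (0.63, adjusted p = 0.0758), 3 (0.57, 0.0687), 7 (0.66, 0.0604), 9 (0.65, 0.0611), 10 (0.65, 0.0689), 11 (0.67, 0.0554) or 12 (0.65, 0.0710). It was also lost without tumour 16 (0.61, 0.0760), 17 (0.63, 0.0681), 18 (0.63, 0.0693), 20 (0.66, 0.0638) or 21 (0.62, 0.0766). Within batches, the change of HERC6 was 0.84 in the spiked tumours, with 8 of 9 higher, and 0.54 in the unspiked tumours, with 6 of 12 higher. The adjusted p within the unspiked tumours was 0.508, in a fit that called 0 of all 42924 probe sets. The limma interaction of the change with batch had an adjusted p of 0.914 for HERC6.

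HERC5, USP18 and TRIM25 completed this group. USP18 removes ISG15 from proteins and damps signalling at the interferon receptor, and its mean change was 0.02 with an SD of 0.70. HERC5 had 0.19 with an SD of 0.76. TRIM25, a ubiquitin ligase that activates the sensor RIG-I, varied little: it ran from 5.09 through 5.39 to 5.96 before and from 5.18 through 5.501 to 5.83 after. Its mean change was 0.08 ± 0.05 (SE, adjusted p = 0.448, SD 0.24). Tumour 1 held its highest level before treatment and its lowest change. The 5 genes averaged 0.22 ± 0.73 (SD over tumours), with 1 of 5 called.

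The transcription factors switch the other members on, and their group mean had the smallest SD over tumours of the 6 role groups. STAT2, which carries the signal of the type I receptor, ran from 8.21 through 8.48 to 9.01 before and from 8.04 through 8.44 to 8.94 after. The tumours lay close together at both times, and tumour 15 was the highest at both. Its mean change was -0.05 ± 0.04 (SE, adjusted p = 0.622), and the SD of 0.17 was the smallest of the 30 members. IRF9, the DNA-binding partner of STAT2, ran from 7.95 through 8.51 to 9.61 before and from 7.45 through 8.47 to 9.66 after. Its mean change was -0.09 ± 0.06 (SE, adjusted p = 0.475), with 14 tumours lower.

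IRF7, the factor that amplifies interferon production, had a mean change of -0.005 with an SD of 0.61, and IRF1, a factor induced most by interferon gamma, had -0.10 with an SD of 0.57. None of the 4 factors was called. Their mean was -0.06 ± 0.29 (SD over tumours), and in tumours 1 and 3 it was -0.49 and 0.14, against -1.67 and 1.86 for the ISG15 group. STAT2 had 5 probe sets, and the 4 not used had correlations with the other members between 0.30 and 0.55, against 0.21 for the one used. The small spread of STAT2 is therefore that of 1 probe set. The mean of the 4 factors is likewise that of the probe sets used. In tumour 3 the 4 unused STAT2 probe sets changed by 0.29 to 0.84, against -0.14 for the one used. The unused IRF1 probe sets changed by 1.27 and 1.08 there, against 0.21 for the one used. For IRF9 the unused ones changed by 0.43 and -0.13, against -0.05.

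PARP9 and DTX3L form a complex that modifies histones, and PARP14 is an ADP-ribosyltransferase encoded close to them. PARP14 ran from 4.78 through 6.45 to 7.61 before and from 5.24 through 6.54 to 7.68 after. Tumour 2 was lowest at both times and tumour 1 highest before. Its mean change was 0.23 ± 0.14 (SE, adjusted p = 0.368). PARP9 had -0.04 and DTX3L -0.04, with SDs of 0.40 and 0.47.

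The remaining members are induced proteins of less settled function. IFI44L, a relative of IFI44, had the largest spread of all 30 members. It ran from 3.53 through 6.65 to 8.98 before and from 4.38 through 6.78 to 9.44 after, from low in tumours 2 and 10 to high in tumours 11 and 21. IFI44L had a mean change of 0.25 ± 0.26 (SE, adjusted p = 0.681) with an SD of 1.31, and 11 tumours were higher and 10 lower.

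IFI6, a mitochondrial protein linked to resistance to cell death, ran from 6.11 through 6.87 to 10.1 before and from 6.24 through 6.81 to 9.89 after, with most tumours near the median and a few far above it. The mean change was -0.22 ± 0.12 (SE, adjusted p = 0.322), with 13 tumours lower. Its lowest change was -1.75 in tumour 6, while tumours 1 and 3 had -0.49 and -0.06. IFI44 (0.12), IFI35 (0.11) and XAF1 (0.05), an antagonist of an inhibitor of apoptosis, had SDs of 0.99, 0.53 and 0.54. None of the 5 was called.

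**Figure D2:**
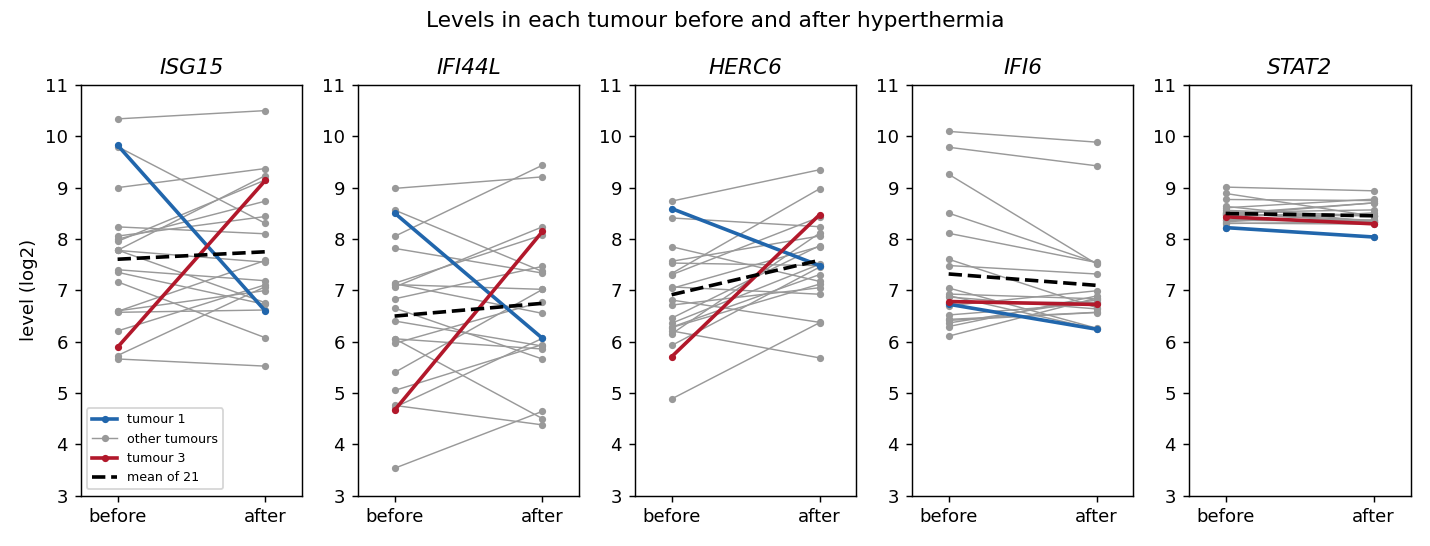
Level (log2) of 5 members before and after treatment, 1 line per tumour, with tumour 1 in blue, tumour 3 in red, the other 19 in grey and the mean of 21 dashed. ISG15, IFI44L and HERC6 show the 2 coloured lines crossing, IFI6 has a few tumours far above the rest at both times, and STAT2 lies between 8.04 and 9.01 throughout.

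The spread of the change was wide in most members. It was above the all-gene median of 0.28 in 28 of 30 members and above the 90th percentile of all named genes, 0.52, in 19 of 30. Members brighter than the median probe set had a median SD of 0.67, against 0.30 for all such genes. For the dimmer members it was 0.37 against 0.26. Without tumours 1 and 3 the member median was 0.47 against 0.28 for all genes, and 14 of 30 were above the 90th percentile recomputed over the same 19 tumours. Within the spiked batch it was 0.42 against 0.23, and within the unspiked batch 0.64 against 0.31.

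**Figure D3:**
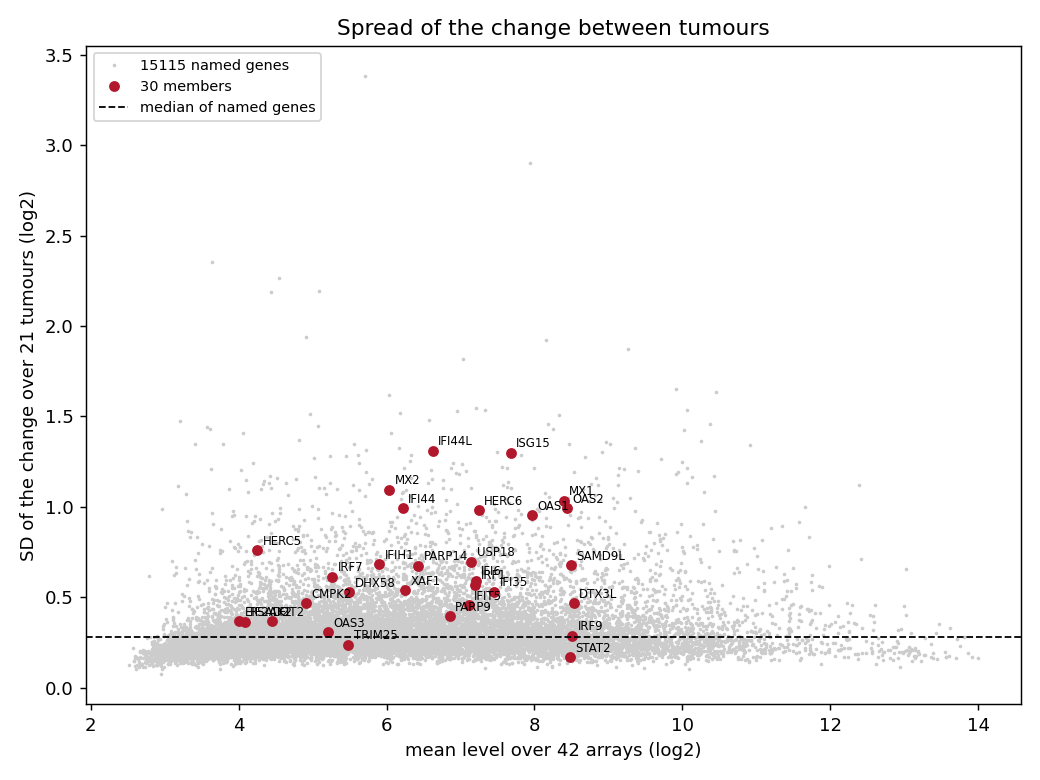
SD of the change over 21 tumours (log2, vertical) against the mean level over 42 arrays (log2, horizontal) for 15115 named genes in grey and the 30 members in red. The dashed line marks the all-gene median of 0.28, and 28 members lie above it, from IFI44L at 1.31 down to STAT2 at 0.17, which lies below it with TRIM25 at 0.24.

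Tumour 3 had the highest mean member change, 1.29, and tumour 1 the lowest, -1.21. In tumour 3, 27 of 30 members were higher after treatment and 14 by at least 2-fold, where 3.54% of all probe sets were that much higher. In tumour 1, 29 of 30 were lower and 20 by at least 2-fold, where 1.94% of all probe sets were that much lower. Several members shifted in opposite directions in these 2 tumours. ISG15 went from 9.83 to 6.59 in tumour 1 and from 5.89 to 9.14 in tumour 3. The unused ISG15 probe set changed less, by -1.89 in tumour 1 and 0.94 in tumour 3. MX1 went from 10.01 to 7.25 in tumour 1 and from 7.32 to 9.23 in tumour 3. IFI44L went from 8.50 to 6.06 and from 4.67 to 8.15. In all, 23 members had their lowest change in tumour 1 and 16 had their highest in tumour 3.

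The next tumours showed smaller shifts of the same kind. In tumour 18 the mean was 0.64, with 26 members higher and 7 by at least 2-fold, against 0.755% of all probe sets. Tumour 9 followed with 0.62, 28 members higher and 6 by at least 2-fold, against 0.198%. On the other side, tumour 4 had a mean of -0.59, with 29 members lower and 4 by at least 2-fold, against 0.946%. Tumour 19 had -0.38, with 23 lower and 4 by at least 2-fold, against 0.713%. Each of these tumours has 1 array at each time, so its shift has no replicate check.

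In 11 of the 21 tumours at least 24 of the 30 members lay on 1 side of 0. They were higher in 8 of these tumours and lower in 3. The share of all probe sets that were higher ran from 44.4% to 57.5% per tumour. In tumours 8 and 20 the members were split 15 to 15 and 16 to 14.

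The level of the whole group also differed between tumours from the start. Each member was centred on its own mean over 42 arrays, and the 30 were averaged per array. Before treatment the highest tumours were 11 (1.13), 1 (1.02) and 4 (0.86), and the lowest were 2 (-1.20), 3 (-0.78) and 7 (-0.75). Tumour 11 stayed highest after treatment (1.198) and tumour 2 stayed lowest (-0.82). Tumour 1 went from rank 2 to rank 14, tumour 4 from 3 to 7, and tumour 3 from rank 20 to rank 4, counted from the highest.

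Levels before and after correlated across tumours, with r = 0.59 over 21 tumours and 0.79 without tumours 1 and 3. Within batches r was 0.87 over the 9 spiked and 0.30 over the 12 unspiked tumours, and the 2 arrays of a tumour share its tissue and batch. For single members this correlation had a median of 0.60, against 0.62 over all named genes. The change correlated with the level before at r = -0.57, and for single members at a median of -0.53 against -0.50 over all named genes. A change holds the level before with a minus sign, and the all-gene median was likewise below 0.

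The profile over the 30 members, each gene centred at each time, was also set between the arrays of a tumour. In 12 of 21 tumours the profile after treatment was most like that of the same tumour before. The correlation within a tumour was -0.11 in tumour 1 and -0.53 in tumour 3, and between 0.27 and 0.95 in the other 19. The member profile of tumour 3 after treatment correlated at 0.67 with that of tumour 1 before, and over all probe sets these arrays correlated at 0.19. For tumour 1 after treatment and tumour 3 before, the values were 0.30 over the members and -0.027 over all probe sets. Over all 42924 probe sets every tumour was most like itself, with 0.60 in tumour 1 and 0.44, the lowest of the 21, in tumour 3.

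**Figure D4:**
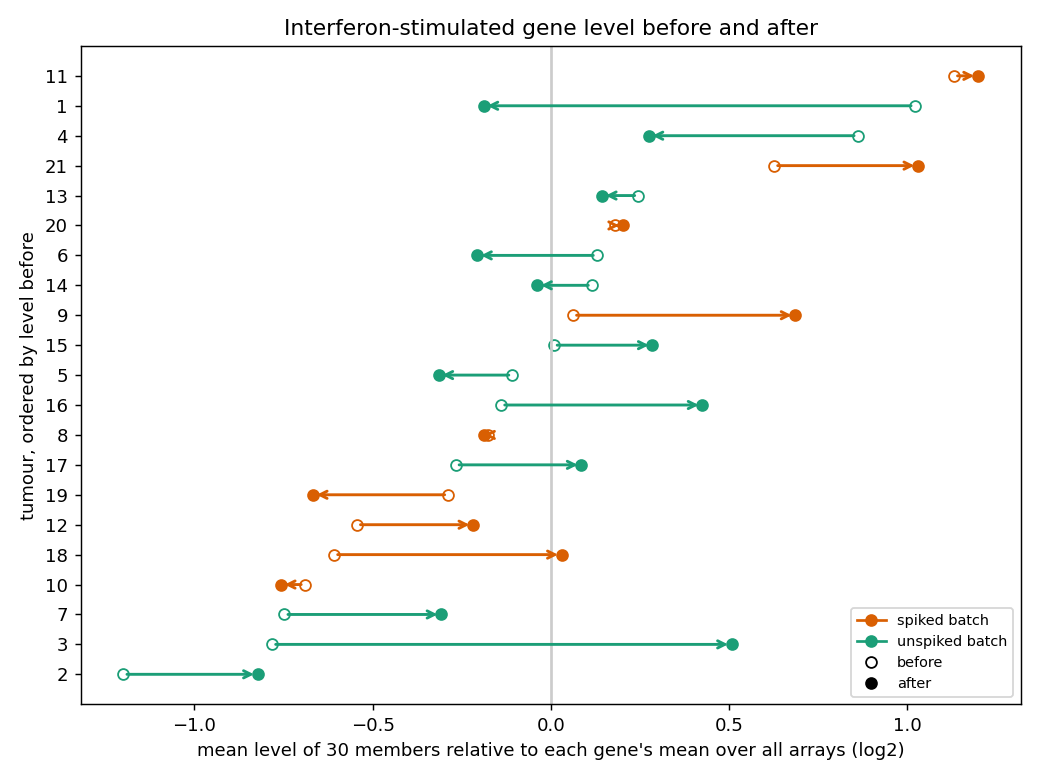
Mean level of the 30 members relative to each gene's own mean over all arrays (log2, horizontal) in each tumour, with an arrow from before (open circle) to after (filled circle), ordered by the level before and coloured by spiked or unspiked batch. Tumours 1 and 3 have the longest arrows, from 1.02 to -0.19 and from -0.78 to 0.51, and tumours 11 and 2 stay at the ends.

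Most members changed together across tumours. Over the 435 pairs of members the median correlation of the change was 0.56, and 58.6% of pairs were above 0.5, against a median of 0.003 and 3.03% of pairs over all named genes. Without tumours 1 and 3 the median was 0.43, in the spiked tumours 0.48 and in the unspiked tumours 0.64. Before treatment the median correlation of levels was 0.59, and after treatment it was 0.51. The points in each correlation share arrays and their normalisation.

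The correlation of a member with the mean of the other 29 was above 0.7 in 20 members, led by IFI44L (0.96), ISG15 (0.96), OAS1 (0.95) and USP18 (0.95). The closest pairs were OAS2 with IFI44L (0.96), OAS1 with ISG15 (0.95) and ISG15 with its protease USP18 (0.95). The lowest members were IFIT5 (-0.076), STAT2 (0.21), IRF1 (0.22), IFI6 (0.42) and TRIM25 (0.46). IFIT5 and IRF1 were opposed to each other (-0.53). The 20 closest members had SDs from 0.40 to 1.31, and the other 10 from 0.17 to 0.59.

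Several members lie beside each other in the dog genome (RefSeq order, assembly UU_Cfam_GSD_1.0). Neighbours MX1 and MX2 changed together at r = 0.91, IFI44 and IFI44L at 0.87, HERC5 and HERC6 at 0.86, and PARP9 and DTX3L at 0.81. The neighbours RSAD2 and CMPK2 reached 0.33 with the probe sets used. In the OAS cluster, OAS1 and OAS2 had r = 0.93 although OAS3 lies between them, and OAS3 reached 0.48 with OAS1 and 0.53 with OAS2. OAS3, RSAD2 and CMPK2 were among the members with low levels, and so was HERC5. Levels before treatment correlated at 0.75 for RSAD2 and CMPK2, and those of OAS3 at 0.34 with OAS1 and 0.42 with OAS2. What sets these correlations was not tested.

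Some members had more than 1 probe set. In OAS1, 3 of the 4 unused probe sets followed the used one at r between 0.92 and 0.98, and the dimmest one had 0.35. The unused ISG15 probe set followed at 0.88, and the unused ones of IFI44L at 0.96 and 0.86. The unused DHX58 probe set had r = 0.038 with the used one, the 4 unused STAT2 probe sets had between -0.14 and 0.16, and 1 of the 2 unused IRF9 probe sets had 0.12. The used probe sets of 11 members have names ending in _s_at or _x_at, which can bind transcripts of related genes.

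The spread between tumours was compared before and after treatment by the Pitman-Morgan test in every probe set. It was called in 1.76% of probe sets and in 0 of 30 members. An unadjusted p under 0.05 was found in 2 members, IRF1 and IFI35, and in 12.3% of all probe sets. IRF1 had an SD of 0.57 before and 0.32 after (adjusted p = 0.197, Pitman-Morgan with Benjamini-Hochberg adjustment over all probe sets). IFI35, which joins a complex with NMI, had 0.73 before and 0.47 after. The SD was smaller after treatment in 22 members and larger in 8, and it was smaller in 58.3% of all probe sets.

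The change was also compared between the spiked and unspiked batches, which were set by the poly-A control levels alone. The interaction in limma was called in 0.00233% of probe sets, which is 1, and in 0 of 30 members. DHX58 was the 1 member with an unadjusted p under 0.05 (adjusted p = 0.651), with 0.33 as its change in spiked tumours and -0.18 in unspiked ones, and 7.10% of all probe sets had such a p. The mean over the members was 0.18 ± 0.34 (SD, n = 9) in the spiked tumours, 6 of them higher. In the unspiked tumours it was 0.06 ± 0.64 (SD, n = 12), again with 6 higher, and 0.06 ± 0.39 (n = 10) without tumours 1 and 3. Both of those tumours were in the unspiked batch.

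Of 90 other symbols of the interferon pathway 63 were measured, with a median change of 0.01. Of these, 0 were called higher and 1 lower, against 2.97% and 2.99% of all probe sets. The gene called lower was CXCL10, a chemokine that draws T cells. It ran from 3.82 through 5.67 to 11.9 before and from 3.73 through 5.06 to 8.48 after. The upper end of its range came down while the lower end stayed in place. The mean change was -0.96 ± 0.26 (SE of the limma fit, adjusted p = 0.0287), with 19 of 21 tumours lower. Without tumour 20 the adjusted p was 0.0512 at a change of -0.93, and without tumours 1 and 3 it was 0.0527 at -0.80.

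CXCL10 was lower after treatment in 11 of the 12 tumours in which the mean member change was above 0. In tumour 3 its change was -0.61 beside a mean member change of 1.29, and in tumour 1 it was -4.38. Its change correlated with the mean member change at r = 0.59, and at 0.45 without tumours 1 and 3. IDO1, an enzyme of tryptophan breakdown induced by interferon gamma, had the next lowest pathway change, -0.44 (adjusted p = 0.352). At the other end stood DDX60 (0.51), a helicase, and WARS1 (0.32), a tRNA synthetase induced by interferon gamma, neither of which passed the test.

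The interferons and receptors did not pass the test. IFNB1, interferon beta, had a mean level of 2.96 and a change of 0.05, and IFNG, interferon gamma, a level of 3.57 and a change of 0.03. Both levels were below the median probe set mean of 5.28, and the lowest value on any array was 2.13. At such levels a probe set may not follow its transcript, so these values do not show that interferon RNA was unchanged. IFNAR1, a chain of the type I receptor, had a change of -0.05. IFNAR2 was not analysed here. By list, the mean change was 0.02 ± 0.10 (SD over tumours) for ligands and receptors, 0.03 ± 0.11 for kinases, STATs and inhibitors, -0.07 ± 0.42 for interferon gamma targets and 0.06 ± 0.35 for 18 further interferon-stimulated genes. The change of those 18 correlated with that of the members at r = 0.96, and at 0.91 without tumours 1 and 3.

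The 10 genes outside the member list whose change was most like the mean member change over 21 tumours were LGALS9 (r = 0.96), DDX60 (0.92), RNF213 (0.92), TRIM22 (0.90), LOC488947 (0.89), EPSTI1 (0.88), B2M (0.86), PSMB9 (0.85), LYZ (0.83) and VAV1 (0.82). LGALS9, DDX60, RNF213, TRIM22 and EPSTI1 are among the 18 further interferon-stimulated genes above, and B2M and PSMB9 among the interferon gamma targets. Galectin 9, the product of LGALS9, is a sugar-binding protein of immune cells, and PSMB9 is a subunit of the immunoproteasome. B2M is the light chain of MHC class I. Without tumours 1 and 3, LGALS9 had 0.92, B2M 0.79 and PSMB9 0.76, while VAV1, a signalling protein of blood cells, had 0.53 and LYZ, the lysozyme of myeloid cells, 0.64. In the spiked tumours LYZ had 0.27.

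Markers of immune and other cells are given beside the member changes, and their part in the result was not tested. All 12 macrophage and monocyte markers were measured. Their mean change was -1.17 in tumour 1, the lowest of all tumours, with 11 of 12 lower, and 0.48 in tumour 3, with 7 of 12 higher. Over 21 tumours it correlated with the member mean at 0.46, and at 0.12 without tumours 1 and 3. Within batches it was 0.094 over spiked and 0.58 over unspiked tumours. In single tests 3 of the 12 were called higher and 1 lower, against 2.97% and 2.99% of all probe sets. The summed level of the list, as its mean, ran from 6.81 to 9.15 before and from 6.997 to 9.25 after.

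Of the 12 T and NK cell markers 7 were called lower, against 2.99% of all probe sets. The list mean was lower in 20 of 21 tumours, with -0.80 in tumour 1 and -0.12 in tumour 3. Its mean level ran from 4.70 to 6.32 before and from 4.36 to 5.41 after. Its correlation with the member mean was 0.41, and 0.25 without tumours 1 and 3. Over spiked tumours it was 0.037, and over unspiked ones 0.46. Of 9 neutrophil markers listed 6 were measured, and 3 were called higher, against 2.97% of all probe sets. Their mean change was 1.27 in tumour 3 and 0.63 in tumour 1. It correlated with the member mean at 0.32, and at 0.35 when tumours 1 and 3 were left out. For 5 markers of plasmacytoid dendritic cells, the main makers of type I interferon in blood, 0 were called and the correlation was -0.024, and 0.29 without tumours 1 and 3. CLEC4C and LILRA4, which define that cell, were not analysed here. The mean of 7 dendritic cell markers correlated with the member mean at 0.47, and at 0.27 without tumours 1 and 3. For 8 endothelial markers it was 0.38 and 0.31. Within batches it was -0.051 over spiked and 0.59 over unspiked tumours for dendritic cells, and 0.26 and 0.59 for endothelial cells. The B cell, epithelial, muscle and mesenchymal lists had between -0.28 and 0.088 over 21 tumours.

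**Figure D5:**
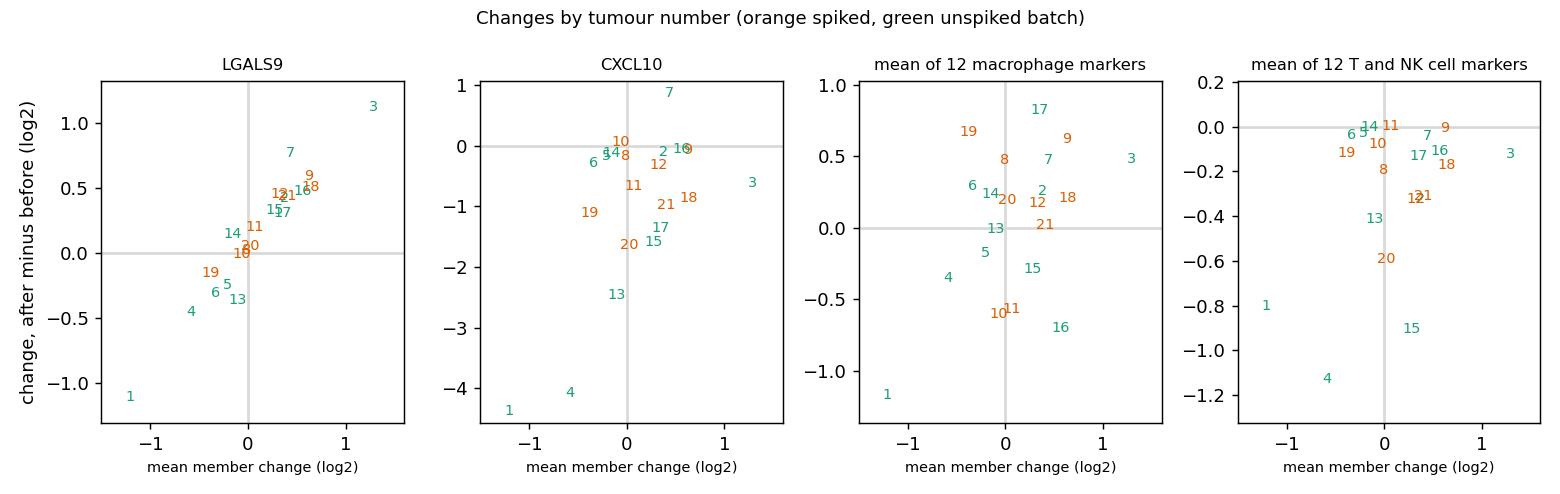
Change (log2, vertical) of LGALS9, of CXCL10, of the mean of 12 macrophage and monocyte markers and of the mean of 12 T and NK cell markers against the mean member change (log2, horizontal), with each tumour shown by its number in the colour of its batch. LGALS9, picked as the gene outside the member list most like the members, follows them along a line (r = 0.96). CXCL10 (0.59) is far below 0 in tumours 1 and 4, and the 2 marker lists (0.46 and 0.41) scatter widely apart from tumour 1.

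RNA quality was followed by the contrast of the 3′ and 5′ probe sets of the actin and GAPDH controls. It changed by -0.15 in tumour 1 and -0.31 in tumour 3, and its part in the member changes was not tested. Over all tumours its change ran from -0.46 to 0.51 and correlated with the mean member change at 0.16, and at 0.36 without tumours 1 and 3. With this contrast as a covariate the change of HERC6 was 0.61 with an adjusted p of 0.0632 in limma.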

How the data were processed

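The authors deposited log2 levels, made with RMA and Affymetrix Expression Console per the submitters' processing notes, versions not given in the sources used here. The table held 111 control probe sets, which were left out, and 42924 others. Gene names came from the platform annotation, in which 29254 probe sets have 1 symbol, and 26 of 30 members were found in the RefSeq gene table by gene identifier. The members and lists were chosen with earlier results of these data known. The code that opens each title named the tumour and so paired its arrays. As a check, each tumour's centred profile over all 42924 probe sets after treatment correlated best with its own before treatment in 21 of 21 tumours. Nothing in the labels ties tumours to dogs, so a p-value covers the spread among tumours.

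Changes were fitted with limma 3.58.1 in R 4.3.3 (lmFit and eBayes, two-sided, tumour as a block, called at an adjusted p under 0.05) and the script was tested on simulated data. Descriptions used Python 3.11.15, pandas 2.3.3, NumPy 2.4.6 and SciPy 1.17.1. Members described in full were every called one, the 3 largest changes each way, the 4 largest and 2 smallest SDs, ISG15, MX1 and OAS1, and the smallest p of each role group. Alternatives were other normalisations, a filter, shrinkage, array weights, no or a random block, a covariate, each batch, the mean of probe sets and leaving out each tumour. The fit without tumours 1 and 3 was added after seeing the data. A planned search of promoters was not run, and no sequences were used here.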

Additional observations from a re-analysis of the deposited data

How the results depend on the processing

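The count of members called higher was 1 with all tumours. It was 0 with no replicate block, with trend and robust shrinkage, with the 3′ to 5′ covariate and in the unspiked batch alone, and 2 in the spiked batch alone and without tumours 1 and 3, where MX2 joined HERC6. Leaving out 1 tumour at a time gave 0 to 2. Over all 42924 probe sets the main fit called 1273 higher and 1285 lower. With no replicate block it was 27 and 3, in the unspiked batch alone 0 and 0, and in the spiked batch alone 510 and 783. Shrinkage with trend and robust gave 1188 and 1228, the covariate 1058 and 1116, and the random block 1128 and 663. Without tumours 1 and 3 it was 772 and 838. Of the other pathway genes 1 was called lower, against 0 with no replicate block, with a random block, in the unspiked batch alone and without tumours 1 and 3, where CXCL10 lost its call, as it did without tumour 20, 2 with array weights, and 0 to 2 without 1 tumour. None was called higher, against 1 under the filter, array weights, the spiked batch alone and the mean of probe sets, and 0 to 1 without 1 tumour. The SD of the member mean change was 0.34 in the spiked batch. The change of STAT2 was 0.02 in the spiked batch (0.0216) and with the mean of probe sets (0.0165), and that of ISG15 ran from -0.01 (-0.0101, without tumour 3) to 0.31 without 1 tumour. The cause was not tested. The SD over tumours has no value under array weights or the covariate. The tumours pair the arrays, so the fit with no replicate block leaves the spread between tumours in the error. Among the alternative values of these counts, of the summaries over members and of the 14 members described in full, 685 kept their direction and side of the threshold or moved by less than the spread between tumours, 36 moved further, 16 lost (HERC6) and 3 gained (MX2) the threshold, and 3 reversed.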
